A study of Homo sapiens with 8 samples.

Results

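DDIT4 (also called REDD1) and 9 other regulators of the growth kinase complex mTORC1 were followed in the established cell line Ishikawa, which derives from a human endometrial adenocarcinoma, after treatment with a glucocorticoid, an estrogen or both. The 10 genes, of 26364 in the deposited table, were taken by symbol: DDIT4, SESN2, SESN3, DEPTOR, TSC1, TSC2, RHEB, RPTOR, RRAGD and AKT1S1. DDIT4 was picked because its level was lower with estradiol than with vehicle, so that difference is given here as a description without a test. The other 9 were chosen for their roles, but with earlier results of these data known. RNA was sequenced from 4 groups of 2 libraries each, with cells kept in phenol red-free medium with charcoal-treated serum, which is low in steroids. The Dex group received 100 nM dexamethasone, a synthetic agonist of the glucocorticoid receptor. The E2 group received 10 nM 17-beta-estradiol, the ligand of the estrogen receptors. The combination group received both hormones at these doses, and the DMSO group received the vehicle. The treatment time is 8 hr in the label of each sample but 1 hr in the protocol shared by all samples, so the time behind these values is uncertain. Nothing in the labels tells whether libraries of a group stem from separate cultures of this 1 line, and p-values then measure only a spread that may be technical.

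mTORC1 is a protein kinase complex at the lysosome that switches cells to protein synthesis and growth when nutrients, energy and growth factors are plentiful. Growth factor signals act through the TSC1-TSC2 complex, which turns off the small GTPase RHEB, the direct activator of mTORC1. Amino acids act through the Rag GTPases, which bring mTORC1 to the lysosome. DDIT4 is a stress-induced inhibitor that acts through the TSC complex. It is a known target of glucocorticoids in muscle and lymphoid cells and of hypoxia through HIF-1. The sestrins SESN2 and SESN3 are stress-induced inhibitors of the amino acid branch, DEPTOR and AKT1S1 (PRAS40) are inhibitory partners of the complex, and RPTOR (Raptor) is its substrate-binding subunit.

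The promoter windows of DDIT4, of SESN2, the member whose level ran most closely with that of DDIT4 over the 8 libraries, and of RPTOR, the member that ran most against it, are printed because these genes mark both ends of the pattern described below. Each window runs from 250 bases before to 50 bases after the annotated start, on the plus strand, and comes from RefSeq with the build GRCh38.p14, whereas the counts were made on hg19. DDIT4 lies at chr10:72273674-72273973, with the letters ACGTG of the hypoxia response core in capitals. SESN2 lies at chr1:28259268-28259567, with both SP1 boxes (GGGCGG and its reverse CCGCCC) in capitals. RPTOR lies at chr17:80544588-80544887, with a TATAAA match on the other strand (TTTATA) in capitals.
DDIT4: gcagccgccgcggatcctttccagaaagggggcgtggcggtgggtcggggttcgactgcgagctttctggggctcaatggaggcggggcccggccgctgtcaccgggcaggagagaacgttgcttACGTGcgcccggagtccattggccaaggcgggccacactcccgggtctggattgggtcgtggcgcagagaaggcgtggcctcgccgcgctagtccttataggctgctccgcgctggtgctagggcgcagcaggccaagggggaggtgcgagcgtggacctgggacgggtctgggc
SESN2: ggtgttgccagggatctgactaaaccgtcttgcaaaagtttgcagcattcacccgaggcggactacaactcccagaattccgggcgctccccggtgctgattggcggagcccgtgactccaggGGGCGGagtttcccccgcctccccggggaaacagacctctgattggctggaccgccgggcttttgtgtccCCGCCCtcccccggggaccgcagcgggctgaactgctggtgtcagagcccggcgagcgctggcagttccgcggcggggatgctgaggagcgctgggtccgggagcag
RPTOR: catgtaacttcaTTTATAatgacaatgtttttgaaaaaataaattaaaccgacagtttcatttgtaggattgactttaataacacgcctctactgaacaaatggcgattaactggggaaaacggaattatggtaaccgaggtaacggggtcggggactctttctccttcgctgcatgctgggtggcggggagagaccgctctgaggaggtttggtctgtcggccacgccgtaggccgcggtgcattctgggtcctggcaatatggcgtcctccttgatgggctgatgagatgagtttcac

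Of the 10 members, 7 were found in the promoter table, TSC2 with 2 start sites, which makes 8 windows. DEPTOR, RRAGD and AKT1S1 were not among them. Each motif was searched on both strands. The full palindromic estrogen response element was in 0 of these 7 members' windows and in 0.057% of all 35116 windows of the same length. Its core GGTCA was in TSC2 and RHEB and in 37.4% of all windows. The full palindromic glucocorticoid response element and its core AGAACA were in 0 of the 7, against 0.00285% and 14.8% of all windows. ACGTG was in DDIT4, at 125 bases before the start, and in RHEB and TSC2, against 21.4% of all windows. The C/EBP-ATF element TGATGNAA, in TSC2, where its match overlaps that of ACGTG, was in 3.62% of all windows. GGGCGG was in SESN2, TSC1, TSC2 and RHEB and in 45.0% of all windows, and TATAAA in RPTOR and in 11.5%. A match is only a run of letters, and a window without one says nothing about whether a factor acts on the gene.

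Library totals lay between 17846211 and 22487333 counts. Levels are given as CPM, the count over a scaled library size. They are not divided by gene length, so they are compared between groups for 1 gene and not between genes. The labelled epithelial cells had 317 to 386 CPM of EPCAM and 500 to 604 CPM of CDH1, while the leukocyte marker CD3E had 0 counts and PTPRC at most 0.144 CPM. The endothelial marker PECAM1 and the fibroblast marker DCN each reached at most 0.0561 CPM, whereas COL3A1, another fibroblast marker, lay between 10.9 and 15 CPM. Both hormones acted on known targets. FKBP5, a glucocorticoid target, had 258.9 and 302.8 CPM in Dex libraries, against 92.1 and 84.8 CPM in DMSO libraries (adjusted p = 1.67e-05). PGR, the progesterone receptor gene and an estrogen target, had 41.1 and 31.8 CPM in E2 libraries, against 4.09 and 2.53 CPM in DMSO libraries (adjusted p = 0.00165). Dex replicate 1 stood apart for estrogen targets: PGR was at 8.91 CPM there and 2.47 CPM in Dex replicate 2, and GREB1 at 17.7 and 6.85 CPM in the same 2 libraries. For the members and the pathway genes called, the printed changes of Dex over DMSO and of the combination over Dex are therefore also given without that library. Adjusted p-values are from edgeR's quasi-likelihood test with Benjamini-Hochberg adjustment over the 14201 genes tested, and a gene was called when this value was under 0.05. All 10 members were among the genes tested. Errors of log2 fold changes are standard errors (SE).

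DDIT4, the inhibitor that acts through the TSC complex, had its highest level with dexamethasone and its lowest with estradiol, and with both hormones it lay between them. It had 529.7 and 537.9 CPM in Dex libraries, 189.7 and 200 CPM in E2 libraries, 274.5 and 254.8 CPM in combination libraries, and 443.3 and 462.3 CPM in DMSO libraries. The libraries did not overlap in any pair of groups compared here, among them E2 and DMSO, on which DDIT4 was picked. Over all genes tested, in the 5 pairs of groups that were compared, groups without overlap were the case for 36.2% in Dex and DMSO, 36.2% in E2 and DMSO, 39.1% in the combination and DMSO, 49.8% in the combination and Dex, and 37.7% in the combination and E2. Replicates lay close together, the largest gap between them being 0.11 on the log2 scale, in the combination, whereas the group means spanned 1.45. These levels rested on 3369 to 11001 counts per library. The RNA came from whole cultures, so fewer cells with DDIT4 RNA and less of it per cell cannot be told apart.

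DDIT4 fell also when estradiol was added to dexamethasone. DDIT4 averaged 264.7 ± 13.9 CPM in combination libraries and 533.8 ± 5.80 CPM in Dex libraries (SD, n = 2 each), a ratio of 0.496. Its log2 fold change was -1.01 ± 0.090 (95% interval -1.21 to -0.81, adjusted p = 0.00105). These 4 libraries are not those on which the gene was picked, although all 8 share the fit's scaling and estimate of spread. DDIT4 was the 1 member of 10 called in this comparison, in which 2.67% of all genes tested were called, 1.84% as lower. The call held when any of the 8 libraries was left out (adjusted p up to 0.0137). Without Dex replicate 1 the log2 fold change was -1.02 (adjusted p = 0.0012).

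On the contrast it was picked on, DDIT4 averaged 194.9 ± 7.31 CPM in E2 libraries and 452.8 ± 13.5 CPM in DMSO libraries. The ratio was 0.430 and the log2 fold change -1.22. These values are the reason for its choice and are given without a test. In that comparison 1.8% of all genes tested were called. The 95% interval of the estradiol effect with dexamethasone ran from -1.21 to -0.81. For the effect without dexamethasone no interval is printed in the text, because DDIT4 was picked on it. The plot of log2 fold changes draws a 95% interval for it, as a description and not as a test. The difference of the effects with and without dexamethasone was 0.20 ± 0.13 on the log2 scale. It holds the contrast of the choice and was likewise not tested.

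With dexamethasone alone DDIT4 was not called, although the Dex libraries lay above those of DMSO. The log2 fold change of Dex over DMSO was 0.24 ± 0.089 (95% interval 0.040 to 0.43, adjusted p = 0.389), a ratio of 1.18. Without Dex replicate 1 it was 0.25 (adjusted p = 0.374). The DMSO libraries are also those of the contrast of the choice, so these p-values of DDIT4 are not free of it. In this comparison 0.965% of all genes tested were called and 0 of 10 members. When dexamethasone was added to estradiol, DDIT4 averaged 264.7 CPM in combination libraries and 194.9 CPM in E2 libraries. This log2 fold change was 0.44 ± 0.090 (95% interval 0.24 to 0.64), a ratio of 1.36, and it missed the threshold (adjusted p = 0.109). DESeq2 (adjusted p = 0.00336), the fit without a filter on low counts (0.0243) and the fit of these 4 libraries alone (0.029) called it, and 0 of 8 fits without a library did. The E2 libraries are also those of the contrast of the choice, so these p-values are not free of it either. In this comparison 0.275% of all genes tested were called, and 0 of 10 members.

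Both hormones together left DDIT4 below vehicle. The combination averaged 264.7 ± 13.9 CPM and DMSO 452.8 ± 13.5 CPM (SD, n = 2 each), with a log2 fold change of -0.77 ± 0.090 and an adjusted p of 0.000937. The call held without any of the 8 libraries (adjusted p up to 0.0178). It was the 1 member of 10 called, against 2.19% of all genes tested. This comparison shares its DMSO libraries with the contrast of the choice, so none of its p-values for DDIT4 is free of that choice. DDIT4 and the antisense gene DDIT4-AS1 share 847 exon bases in GENCODE release 29. The kit was a stranded one, but how the counting treated strand is unknown here, and the count of DDIT4 may hold reads of its antisense partner. DDIT4-AS1 itself was not analysed here.

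**Figure D1:**
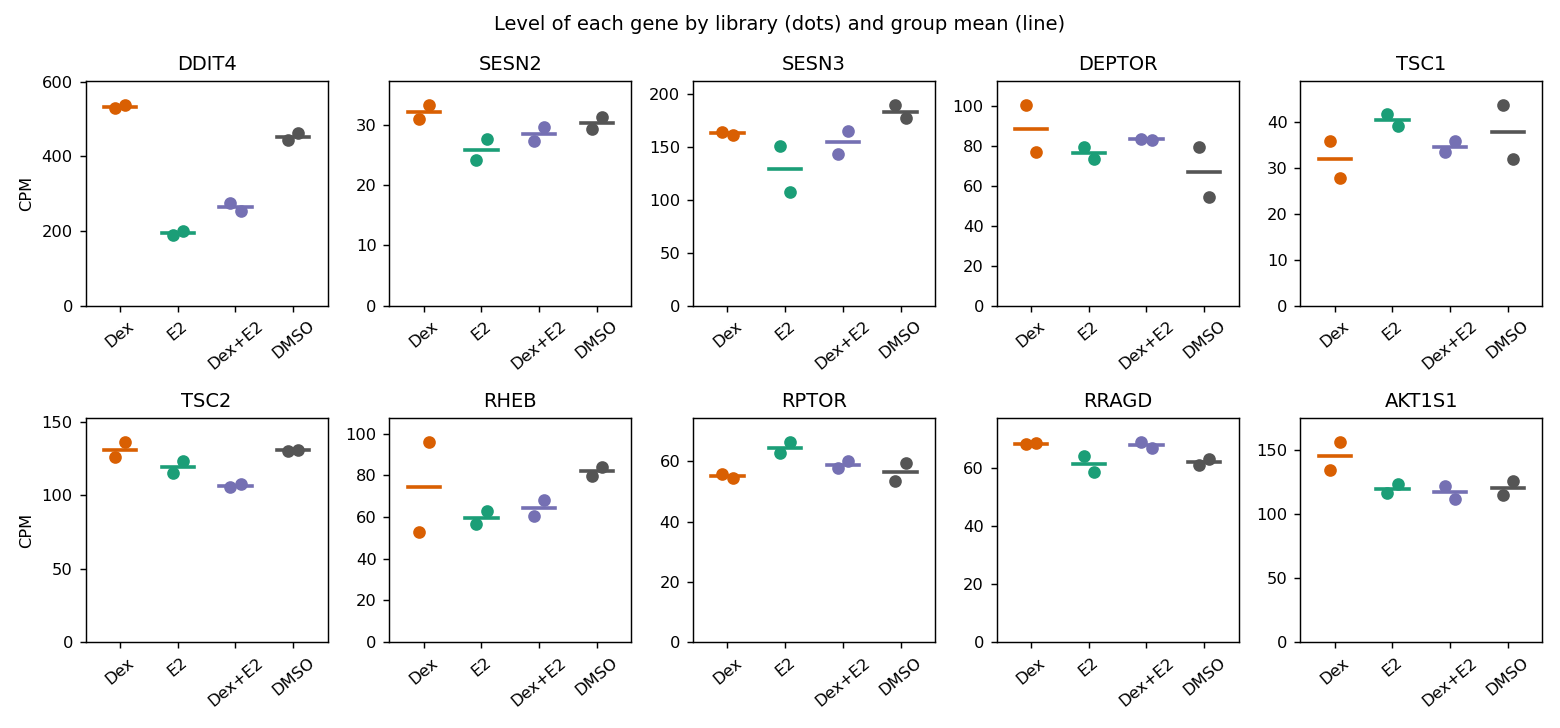
Level of each of the 10 genes in CPM (y axis, from 0) in Dex, E2, combination (Dex+E2) and DMSO libraries (x axis). Dots are libraries, 2 per group, and lines are group means. DDIT4 separates the 4 groups, from 189.7 CPM in an E2 library to 537.9 CPM in a Dex library, whereas for RHEB the Dex libraries alone span 52.6 to 96.0 CPM.

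The sestrins, stress-induced proteins that restrain mTORC1 when leucine or other amino acids are short, were called in none of the 6 comparisons. SESN2, a leucine sensor, had 31.1 and 33.3 CPM in Dex libraries, 24.2 and 27.7 CPM in E2 libraries, 27.4 and 29.8 CPM in combination libraries, and 29.3 and 31.3 CPM in DMSO libraries. Its groups stood in the same order as those of DDIT4, Dex, DMSO, combination and E2 from high to low, but each group overlapped its neighbour in that order. The log2 fold change of E2 over DMSO was -0.22 ± 0.11 (adjusted p = 0.499) and that of the combination over Dex was -0.17 ± 0.11 (adjusted p = 0.475; -0.22 and 0.42 without Dex replicate 1). The intervals of these changes, -0.47 to 0.020 and -0.41 to 0.070, do not reach the size of the DDIT4 difference between the combination and Dex.

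SESN3 had the largest estradiol difference among the 9 other members. It had 150.7 and 106.9 CPM in E2 libraries, against 189.5 and 177.0 CPM in DMSO libraries, with a log2 fold change of -0.51 ± 0.14 (95% interval -0.83 to -0.20, adjusted p = 0.133). The E2 libraries did not overlap those of DMSO, which held for 36.2% of all genes tested. They differed among themselves by 0.50 on the log2 scale, and the change was -0.29 without E2 replicate 2 and -0.78 without E2 replicate 1 (adjusted p = 0.533 and 0.032). DESeq2 (0.0227) and the fit without a filter (0.0129) called it. With dexamethasone present, SESN3 had 143.7 and 165.0 CPM in combination libraries, against 164.1 and 161.5 CPM in Dex libraries, and these groups overlapped (log2 fold change -0.077 ± 0.14, adjusted p = 0.838; -0.066 and 0.876 without Dex replicate 1). The test of whether the hormones' effects depended on each other gave 0.43 ± 0.20 (adjusted p = 0.945).

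The TSC complex and RHEB, which stand between DDIT4 and the kinase, were not called in any comparison. TSC2, the GTPase-activating subunit that acts on RHEB, had 125.8 and 136.4 CPM in Dex libraries, 115.5 and 123.1 CPM in E2 libraries, 105.6 and 107.7 CPM in combination libraries, and 129.9 and 131.1 CPM in DMSO libraries. Its lowest group was the combination, which overlapped no other group, and Dex and DMSO overlapped. Over all genes tested, the combination did not overlap DMSO for 39.1%, Dex for 49.8% and E2 for 37.7%. The combination differed from Dex by -0.30 ± 0.089 on the log2 scale (adjusted p = 0.121; -0.36 and 0.122 without Dex replicate 1) and from DMSO by -0.29 ± 0.089 (adjusted p = 0.172). TSC2 shares 778 exon bases with PKD1 and 402 with NTHL1 on the opposite strand, so their reads may not be separated either. TSC1, the scaffold that stabilises TSC2, had 35.8 and 27.9 CPM in Dex libraries, 41.7 and 39.2 CPM in E2 libraries, 33.4 and 35.9 CPM in combination libraries, and 43.7 and 31.9 CPM in DMSO libraries. DMSO overlapped each of the other groups of TSC1, whose replicates differed by up to 0.45 on the log2 scale against a span of 0.35 between group means. The 6 log2 fold changes of TSC1 lay between -0.24 for Dex over DMSO and 0.12 for the combination over Dex, or -0.44 and 0.31 without Dex replicate 1.

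RHEB, the GTPase that switches mTORC1 on, was the member with the widest spread between replicates. It had 52.6 and 96.0 CPM in Dex libraries, 56.4 and 62.9 CPM in E2 libraries, 60.7 and 68.0 CPM in combination libraries, and 79.7 and 84.2 CPM in DMSO libraries. The E2 and combination libraries lay below those of DMSO, while the Dex libraries held both the lowest and the highest value of all 8. Over all genes tested, E2 and DMSO did not overlap for 36.2%, and the combination and DMSO for 39.1%. The log2 fold change of E2 over DMSO was -0.46 ± 0.21 (adjusted p = 0.451) and that of the combination over Dex -0.21 ± 0.21 (adjusted p = 0.683). The second value turned on the Dex libraries: it was -0.58 without Dex replicate 1, with an adjusted p of 0.0401, and 0.28 without Dex replicate 2, with 0.532. RHEB also shares 556 bases at 99.1% identity with the pseudogene RHEBP1 and 600 bases at 98.7% with RHEBP2 in GENCODE release 29, so its counts are uncertain.

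The 3 members that are part of the complex itself were not called either. RPTOR, which recruits substrates, had 56.0 and 54.4 CPM in Dex libraries, 62.7 and 66.5 CPM in E2 libraries, 57.7 and 60.1 CPM in combination libraries, and 53.7 and 59.4 CPM in DMSO libraries. E2 was its highest group and overlapped no other, whereas E2 was the lowest group for DDIT4. Such a lack of overlap held for 36.2% of all genes tested in E2 and DMSO and 37.7% in the combination and E2. The log2 fold change of E2 over DMSO was 0.19 ± 0.095 (adjusted p = 0.497) and that of the combination over Dex 0.093 ± 0.096 (adjusted p = 0.683; 0.11 and 0.668 without Dex replicate 1). AKT1S1, an inhibitory subunit released when AKT phosphorylates it, had 134.5 and 156.8 CPM in Dex libraries, 116.4 and 123.8 CPM in E2 libraries, 122.0 and 112.3 CPM in combination libraries, and 115.0 and 125.8 CPM in DMSO libraries. The Dex libraries lay above those of the 3 other groups, which overlapped each other. Of all genes tested, 36.2% had no overlap between Dex and DMSO and 49.8% none between the combination and Dex. The log2 fold change of AKT1S1 was 0.27 ± 0.10 for Dex over DMSO (adjusted p = 0.394) and -0.31 ± 0.10 for the combination over Dex (adjusted p = 0.161). Without Dex replicate 1 these were 0.38 and -0.42, with adjusted p-values of 0.229 and 0.093. AKT1S1 shares 392 exon bases with TBC1D17 on the opposite strand, so their reads may not be separated.

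DEPTOR, an inhibitory subunit of both mTOR complexes, had 100.4 and 76.7 CPM in Dex libraries, 79.6 and 73.2 CPM in E2 libraries, 83.6 and 83.1 CPM in combination libraries, and 79.5 and 54.2 CPM in DMSO libraries. The DMSO libraries differed by 0.55 on the log2 scale, more than the 0.42 between the highest and lowest group means. Dex over DMSO gave 0.41 ± 0.17 (adjusted p = 0.463), and 0.20 without Dex replicate 1 (adjusted p = 0.649). RRAGD, a Rag GTPase of the amino acid branch, moved least of the 10: its libraries lay between 58.6 and 68.9 CPM, and its group means spanned 0.16 on the log2 scale. It had 68.1 and 68.5 CPM in Dex libraries, 64.2 and 58.6 CPM in E2 libraries, 68.9 and 66.6 CPM in combination libraries, and 61.0 and 62.9 CPM in DMSO libraries. The groups with dexamethasone lay above those without it. Of all genes tested, 36.2% had no overlap between Dex and DMSO and 37.7% none between the combination and E2. The log2 fold change of RRAGD was 0.14 ± 0.092 both for Dex over DMSO (adjusted p = 0.674) and for the combination over E2 (adjusted p = 0.944). Without Dex replicate 1 the change of Dex over DMSO was the same 0.14.

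In all, edgeR called 0 of the 9 other members in each of the 6 comparisons. At an unadjusted p under 0.05 there were 2 of 9 for Dex over DMSO, 1 for E2 over DMSO, 1 for the combination over DMSO, 2 for the combination over Dex, and 0 for the combination over E2 and for the interaction. Over all genes tested the shares at this level were 9.84%, 11.4%, 10.8%, 16.7%, 6.37% and 5.16% in the same order. DESeq2 and the fit without a filter called SESN3 for E2 over DMSO. The median log2 fold change of the 9 was -0.014 for E2 over DMSO and -0.088 for the combination over Dex, against -0.0048 and -0.0034 over all genes tested.

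**Figure D2:**
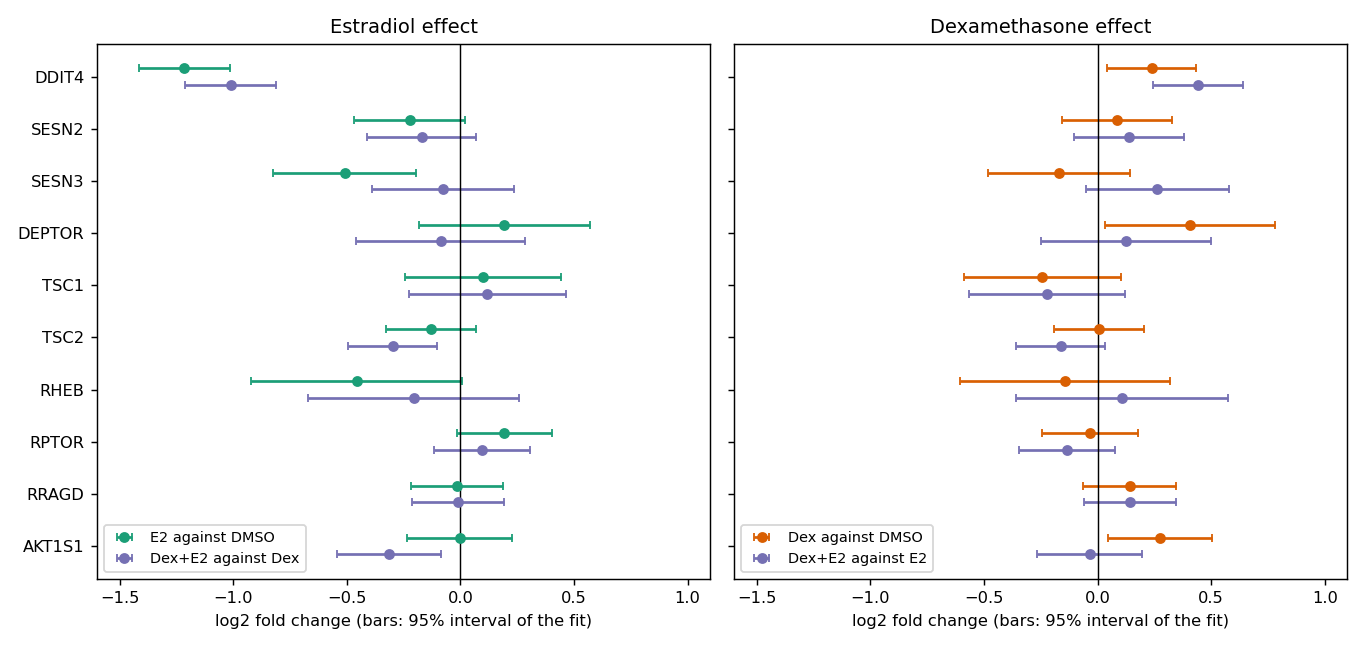
Log2 fold changes of the 10 genes (x axis; points are fitted values and bars 95% intervals). The left panel shows estradiol, as E2 against DMSO and as the combination against Dex, and the right panel dexamethasone, as Dex against DMSO and as the combination against E2. For the combination against Dex, DDIT4 stands at -1.01, beyond the intervals of the 9 other genes in the left panel. Its -1.22 for E2 against DMSO is the value it was picked on, and the bar there is no test. For dexamethasone DDIT4 stands at 0.24 and 0.44.

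Around these members, 93 further genes of the pathway were taken in 5 lists by role, again with earlier results of these data known. Of these, 92 passed the filter on low counts. The exception was EIF4EBP3, at most 5 counts in any library. For E2 over DMSO, 1 of the 92 rose and 1 fell, against 1.8% of all genes called. For the combination over DMSO 2 rose and 0 fell (background 2.19%), and for the combination over Dex 1 rose and 0 fell (background 2.67%). None of the 92 was called for Dex over DMSO, for the combination over E2 or for the interaction, where the shares of all genes called were 0.965%, 0.275% and 0.0211%. At an unadjusted p under 0.05 there were 9, 3 and 4 of the 92 in these comparisons, against 9.84%, 6.37% and 5.16% of all genes tested. DESeq2 and limma-voom also called 0 in each of these 3 comparisons, and the fit without a filter called 1, for Dex over DMSO. The shares called in the lists were thus near those of all genes.

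Among 13 transcription factors known to induce DDIT4 or sestrins, CEBPB rose over DMSO with estradiol and with both hormones. CEBPB, a C/EBP factor of the stress and differentiation programmes, had 56.0 and 64.4 CPM in E2 libraries, against 32.3 and 34.9 CPM in DMSO libraries (log2 fold change 0.84 ± 0.10, adjusted p = 0.00205). The combination had 56.7 and 54.7 CPM, also above the same DMSO libraries (0.73 ± 0.10, adjusted p = 0.00295). Both calls held without any of the 8 libraries (adjusted p up to 0.0431 and 0.0399). In Dex libraries CEBPB was at 44.2 and 45.1 CPM (0.41 ± 0.10 over DMSO, adjusted p = 0.151; 0.42 and 0.232 without Dex replicate 1). The combination was above these Dex libraries by 0.32 ± 0.10 on the log2 scale and was not called (adjusted p = 0.148; 0.30 and 0.259 without Dex replicate 1). The other 12 factors, among them the hypoxia factor HIF1A, the integrated stress factor ATF4 and the receptor gene NR3C1, were called in no comparison.

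Of 24 genes of growth factor and energy inputs, TXNIP fell with estradiol. TXNIP, which limits glucose uptake and binds thioredoxin, had 58.2 and 66.2 CPM in E2 libraries, against 83.1 and 90.6 CPM in DMSO libraries (log2 fold change -0.48 ± 0.10, adjusted p = 0.039). TXNIP was no longer called without either E2 library, either combination library or DMSO replicate 2 (adjusted p up to 0.25), and in the fit of these 4 libraries alone (0.0875). With dexamethasone present TXNIP had 79.7 and 78.7 CPM in combination libraries, against 80.0 and 85.0 CPM in Dex libraries (log2 fold change -0.058 ± 0.099, adjusted p = 0.823; -0.10 and 0.711 without Dex replicate 1). The test of whether these estradiol differences were unequal gave 0.42 ± 0.14 (adjusted p = 0.811). DDIT4L, the paralog of DDIT4, was in this list and was called in no comparison.

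Of 9 genes of mTOR complex subunits and assembly, PRR5L, a subunit of the other complex, mTORC2, rose in the combination. It had 18.1 and 20.1 CPM there, against 12.8 and 12.8 CPM in DMSO libraries (log2 fold change 0.58 ± 0.12, adjusted p = 0.032). In E2 libraries it had 19.4 and 17.9 CPM (0.54 ± 0.12 over DMSO, adjusted p = 0.0538). Of 19 substrates and outputs, EEF2K, the kinase that slows translation elongation and that mTORC1 signalling restrains, rose when estradiol was added to dexamethasone. It had 38.9 and 39.4 CPM in combination libraries, against 29.4 and 23.0 CPM in Dex libraries (log2 fold change 0.58 ± 0.12, adjusted p = 0.032). The PRR5L call was lost without any E2, combination or DMSO library (adjusted p up to 0.334) and in the fit of its groups alone (0.0751), and the EEF2K call without Dex replicate 2 or any E2 or combination library (adjusted p up to 0.255). Without Dex replicate 1 EEF2K stood at 0.77 (adjusted p = 0.0108). Of the 28 amino acid sensing and Rag GTPase genes, 0 were called in the 6 comparisons, against 0.0211% to 2.67% of all genes. At an unadjusted p under 0.05 there were at most 2 of 28, for Dex over DMSO, where the share of all genes was 9.84%.

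The lists' medians were set beside that of all genes. For E2 over DMSO they lay between -0.070, for the transcription factors, and 0.075, for the mTOR complex subunits, against -0.0048 over all genes tested. For the combination over Dex they lay between -0.049 and 0.12 in the same lists, against -0.0034. At an unadjusted p under 0.05, 17 of the 92 pathway genes differed between the combination and Dex, against 16.7% of all genes tested. By list these were 4 of 9 mTOR complex genes, 4 of 13 transcription factors and 4 of 24 inputs. The rest were 4 of 18 substrates and outputs tested and 1 of 28 amino acid sensing and Rag genes.

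**Figure D3:**
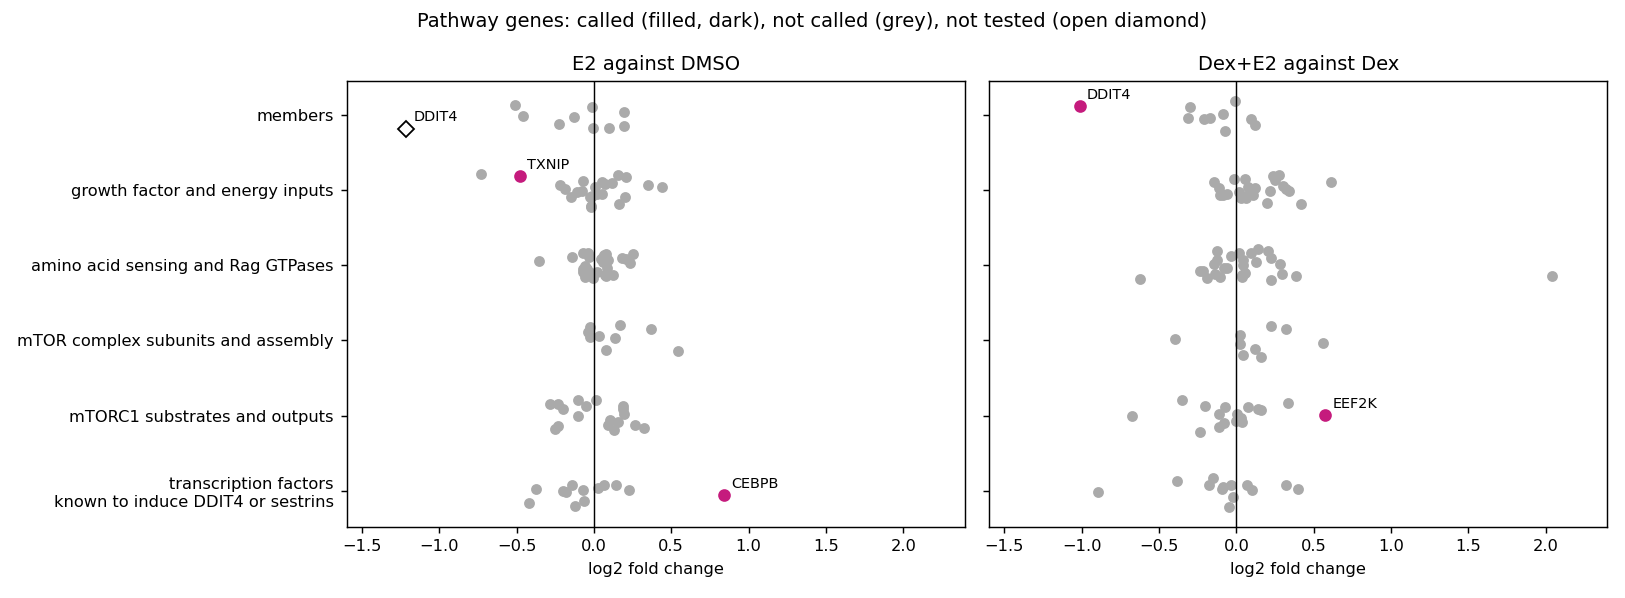
Log2 fold changes (x axis) of the 10 members and of 92 pathway genes by list (rows), for E2 against DMSO on the left and the combination against Dex on the right; each dot is a gene. Genes called are dark and named, and DDIT4 on the left is open because it was picked on that contrast. Apart from DDIT4, every point lies within 1 of 0 except a grey point at 2.04 on the right, GATSL2, which had 3.28 and 5.66 CPM in combination libraries and 1.45 and 0.674 CPM in Dex libraries and was not called (adjusted p = 0.394).

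Of 11964 genes tested with a mean log2 CPM above 1, those whose levels ran most closely with DDIT4 over the 8 libraries were SIX5 (Pearson r = 0.983), RAB11FIP4 (0.98), ID2 (0.98), CTBP2 (0.975) and ACPP (0.974). SIX5 is a homeobox transcription factor, RAB11FIP4 an effector of a Rab GTPase of recycling endosomes, ID2 an inhibitor of helix-loop-helix factors, CTBP2 a transcriptional corepressor and ACPP prostatic acid phosphatase. RAB11FIP4 averaged 185 CPM in Dex, 107.6 in E2, 120.9 in combination and 171 CPM in DMSO libraries. Like DDIT4, these 5 genes had their highest mean in Dex and their lowest in E2. Their log2 fold changes for E2 over DMSO, from -0.89 for ACPP to -0.35 for CTBP2, were smaller in size than that of DDIT4.

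The 5 genes that ran most against DDIT4 were GLUD1 (r = -0.991), RABGGTB (-0.983), HSPA8 (-0.98), CCT2 (-0.98) and FAM8A1 (-0.977). GLUD1 encodes mitochondrial glutamate dehydrogenase, RABGGTB a subunit of the enzyme that adds lipid anchors to Rab proteins, HSPA8 the constitutive HSC70 chaperone and CCT2 a subunit of the chaperonin that folds actin and tubulin. HSPA8 averaged 2669 CPM in Dex, 3904 in E2, 3422 in combination and 2831 CPM in DMSO libraries. Their log2 fold changes for E2 over DMSO lay between 0.19 for GLUD1 and 0.46 for HSPA8. These correlations describe 8 libraries in 4 groups, were taken as the extremes of many, and share the contrast on which DDIT4 was picked. Among the members, r with DDIT4 was 0.849 for SESN2, 0.689 for TSC2, 0.663 for SESN3, 0.611 for AKT1S1, 0.515 for RHEB, 0.331 for RRAGD, -0.028 for DEPTOR, -0.49 for TSC1 and -0.834 for RPTOR.

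**Figure D4:**
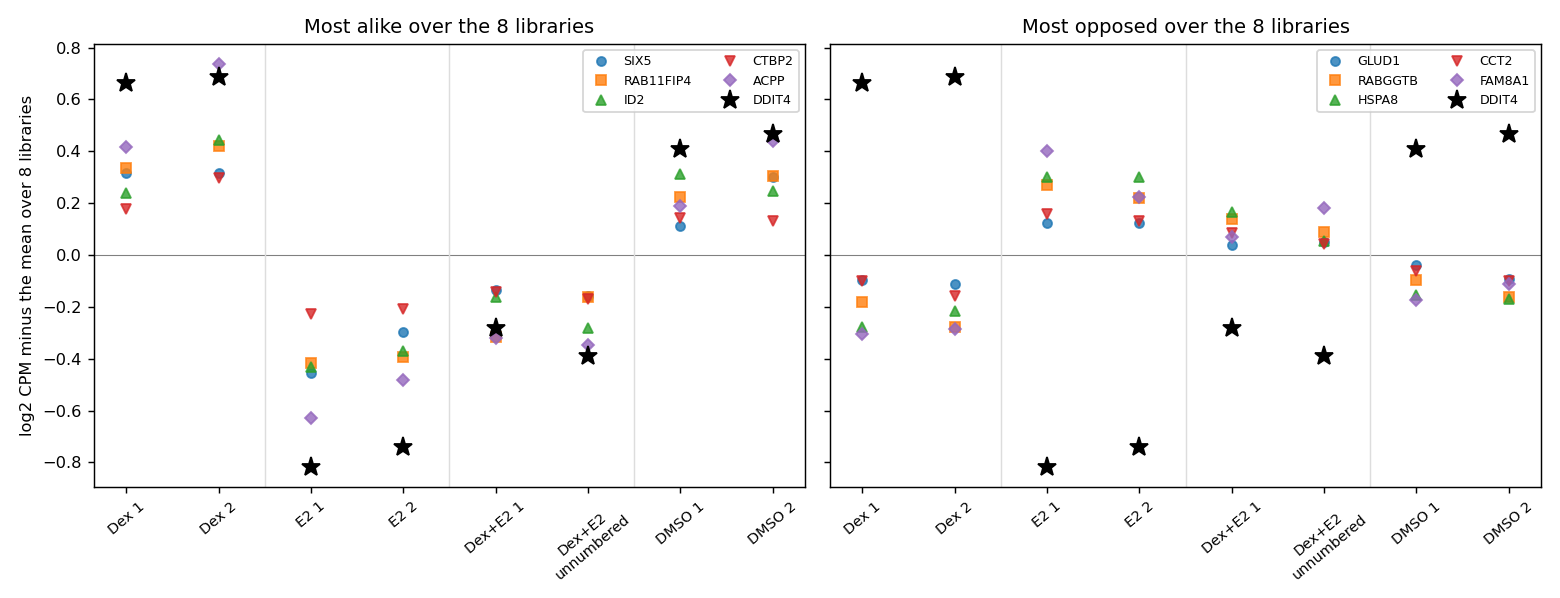
Log2 CPM minus the gene's mean over the 8 libraries (y axis) in each library (x axis), for DDIT4 (stars) with the 5 genes most alike on the left and the 5 most opposed on the right. DDIT4 is above 0 in the 4 Dex and DMSO libraries and below 0 in the 4 libraries with estradiol, and the genes on the right, which span less, lie on the other side of 0.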

How the data were processed

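The authors deposited raw counts per gene for 8 libraries, which are used here, and normalised values of the same libraries, which are not. Tools listed per the submitters' processing notes, without their roles, are HISAT2 2.0.4, featureCounts 1.5.1, Subread and DESeq2 1.14.1, and the build listed is hg19. The annotation is not given in the sources used here. Columns were matched to samples by name. Both combination columns carry the number 1, so the column that does not match the label of replicate 1 was used without a number.

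Counts were filtered with filterByExpr (14201 of 26364 genes), scaled by TMM and fitted with edgeR 4.0.16 (quasi-likelihood, limma 3.58.1, R 4.3.3), with all 8 libraries and 4 groups in 1 fit, which leaves 4 residual degrees of freedom. P-values were adjusted within each of 6 comparisons, the last being the interaction, in which the response to dexamethasone in the absence of estradiol is subtracted from that in its presence. Alternatives were RLE scaling, DESeq2 1.42.0, limma-voom, no filter, the compared groups alone, each library left out and a replicate block. The members and lists were chosen with earlier results of these data known. The genes named are the members, the pathway genes called, the 5 genes most like and most unlike DDIT4 (log2 CPM with a prior count of 2, mean above 1) and hormone-response checks; HIF1A, ATF4, NR3C1, DDIT4L, EIF4EBP3 and GATSL2 were added after their values were seen. Libraries of the same group were not duplicates of each other (chi-square per degree of freedom 9.61 to 24.8).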

Additional observations from a re-analysis of the deposited data

How the results depend on the processing

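Of 952 values of the named genes under the alternatives, 888 kept direction and side of the threshold, 18 lost a call, 8 gained one, 3 untested values moved beyond the replicate spread and 35 changed sign. Of the 9 members tested for E2 over DMSO, 1 instead of 0 was called by DESeq2, without a filter and with the replicate block (0 to 1 without a library). Of all 10, 1 instead of 0 was called for the combination over E2 by DESeq2, without a filter and in the compared groups alone. Over Dex, 1 to 2 were called in the combination without a library. Of the pathway genes, 1 instead of 0 was called for Dex over DMSO without a filter and with the block. For E2 over DMSO 1 instead of 2 was called in the compared groups alone, 4 with the block and 1 to 2 without a library. Counts for the combination over DMSO were 4 instead of 2 without a filter, 1 in the compared groups alone and 1 to 3 without a library. Those for the combination over Dex were 3 instead of 1 with DESeq2, 4 without a filter, 5 in the compared groups alone and 0 to 4 without a library. In the compared groups alone, 1 instead of 0 was called for the combination over E2. The cause was not tested.

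Over all genes, 137 were called for Dex over DMSO (253 without a filter, 63 in the compared groups alone, 239 with the block, 78 to 127 without a library), and 256 for E2 over DMSO (442 without a filter, 441 with the block, 58 to 298 without a library). Calls were 311 for the combination over DMSO (157 to 325 without a library) and 379 over Dex (658 without a filter, 89 to 488 without a library). They were 39 for the combination over E2 (75 with DESeq2, 132 without a filter, 151 in the compared groups alone, 10 to 68 without a library) and 3 for the interaction (15 with DESeq2, 32 without a filter, 1 to 10 without a library).

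Values that changed sign were called neither way, apart from RHEB below. With a library left out, log2 fold changes of Dex over DMSO ran from -0.049 to 0.063 for TSC2 (-0.0031 without a filter), -0.64 to 0.23 for RHEB, -0.10 to 0.044 for RPTOR and -0.36 to 0.00090 for EEF2K. For E2 over DMSO they ran from -0.057 to 0.49 for DEPTOR, -0.11 to 0.34 for TSC1, -0.081 to 0.040 for RRAGD and -0.067 to 0.064 for AKT1S1 (0.0059 in the compared groups alone). For the combination over DMSO they ran from -0.33 to 0.12 for TSC1, -0.011 to 0.13 for RPTOR and -0.10 to 0.028 for AKT1S1. For the combination over Dex they ran from -0.18 to 0.020 for SESN3, -0.27 to 0.12 for DEPTOR, -0.052 to 0.31 for TSC1, -0.58 (adjusted p = 0.0401) to 0.28 for RHEB and -0.036 to 0.013 for RRAGD. AKT1S1 ran, for the combination over E2, from -0.096 to 0.023. For the interaction they ran from -0.039 to 0.17 for SESN2, -0.22 to 0.23 for TSC1, -0.12 to 0.74 for RHEB and -0.054 to 0.070 for RRAGD.

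The labels do not say that a replicate number marks a shared culture, so the numbers were not taken to pair libraries. Deviations of same-numbered libraries correlated positively, at 0.243 (DMSO and Dex), 0.153 (DMSO and E2) and 0.049 (Dex and E2). Whether same-numbered libraries share a culture was not tested. The block, over the 6 numbered libraries of Dex, E2 and DMSO, gave SESN3 an adjusted p of 0.0253 for E2 over DMSO. For the comparisons with the combination no paired fit was run, because both combination columns carry the number 1 and the column not matching a label was left without a number. With 2 libraries a group, leaving one out leaves a lone library that is assumed to vary like the other groups.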
